A study of Canis lupus familiaris with 8 samples.

Results

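Genes that take up, activate, store, release, make and burn fatty acids were followed in peripheral blood mononuclear cells (PBMCs) of obese and normal dogs. They were 42 genes chosen by name for their textbook roles, and all 42 were among the 35048 gene rows of each table. By role they were 14 genes of mitochondrial oxidation, 5 of uptake, 4 of activation to acyl-CoA, 8 of storage in lipid droplets, 4 of lipolysis, 5 of synthesis and 2 that set the choice of fuel. PBMCs are blood lymphocytes and monocytes freed of most other cells. Of the 5 obese dogs, dog 1 was of the Dachshunds, dog 2 was a Chihuahua, dogs 3 and 4 were Labrador retrievers and dog 5 was a Welsh Corgi. Each of the 3 normal dogs was a Beagle, so body condition and breed cannot be told apart in any comparison. Each library came from a separate dog with no treatment named, and the sources used here give neither age nor sex. Levels are CPM, counts scaled to a common library size, from 3′ tag libraries, in which reads start near the poly(A) end of a transcript, so a level depends little on its length.

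Fatty acids enter cells through carriers and lipases at the cell surface, are joined to coenzyme A by acyl-CoA synthetases, and then go one of several ways. They can be built into triglyceride and kept in lipid droplets coated by perilipins, or cross into mitochondria on carnitine and be shortened by the enzymes of β-oxidation, which pass electrons through the electron transfer flavoprotein to the respiratory chain. In blood cells, resting lymphocytes and monocytes rely in part on oxidation, while activated myeloid cells are known for filling lipid droplets.

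The oxidation gene HADHB was lower in the obese dogs, just past the threshold (adjusted p = 0.049, edgeR). The other 36 genes that could be tested did not pass it. The call of HADHB held in 7 of 17 alternative fits. HADHB encodes the β-subunit of the mitochondrial trifunctional protein, with a mean of 28.5 ± 5.47 CPM in obese dogs and 74.5 ± 6.95 CPM in normal dogs (SD, n = 5 and 3). Of the 42 genes, 37 passed the filter on low counts. At an adjusted p under 0.05 in edgeR's quasi-likelihood test, 1 of the 37 was lower in obese dogs, where 0.184% of all 20632 genes tested were lower, and 0 were higher, where 0.0485% of all genes were. At an unadjusted p under 0.05 the counts were 7 lower and 0 higher (6.73% and 9.01% of all genes). The log2 fold changes, obese minus normal, were negative for 22 and positive for 15 of the 37 genes, with a median of −0.18 against 0.09 over all genes tested. The levels of the obese dogs lay wholly below those of the normal dogs for 4 genes (HADHB, HADHA, ETFA and ACACB) and wholly above them for 1 gene, PNPLA2. Over all genes tested this held for 5.16% and 5.75%.

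By role, the median log2 fold change was −0.32 for the 14 oxidation genes and 0.53 for the 4 lipolysis genes, and it was −0.37 for the 7 storage genes tested. Storage and lipolysis genes together, 11 tested, had a median of 0.22 with a range from −2.58 to 0.63. The activation genes had a median of −0.25 and the synthesis genes a median of 0.09. All 4 lipolysis genes had a positive fold change and 11 of 14 oxidation genes a negative one. Of all 20632 genes tested, 11414 were positive and 9218 negative. With only dogs 1 to 3 of each group, 3 of the 4 lipolysis genes were positive. Upper-quartile scaling moved the median of all genes from 0.09 to −0.03. With it the 4 lipolysis genes stayed positive, 12 of 14 oxidation genes were negative, and the synthesis median changed sign to −0.03. The storage median moved with single dogs and with the tool: it was −1.02 without obese dog 3, 0.02 without normal dog 3 and −1.85 with limma-voom. That of storage and lipolysis together was −0.15 without obese dog 3.

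**Figure D1:**
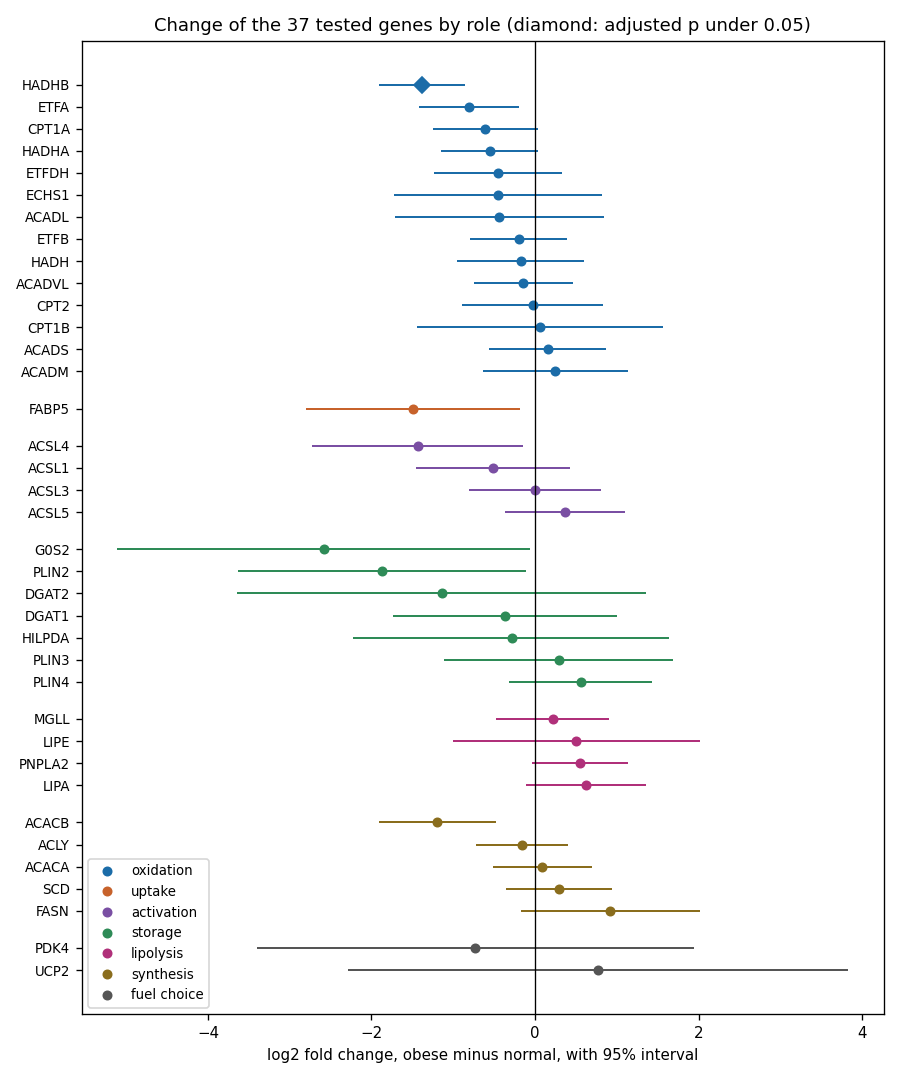
Log2 fold change (x axis, obese minus normal) of each of the 37 tested genes (rows, grouped by role) with its 95% interval from the edgeR fit; the diamond is the gene past the threshold. HADHB has a narrow interval from −1.90 to −0.87, while G0S2, PLIN2 and DGAT2 have wide ones.

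Library totals ran from 10264202 to 14910982 counts over the 8 dogs. Obese dog 3 stood apart from the other obese dogs in cell type markers. Its 8 neutrophil markers summed to 5981.9 CPM, against 298 to 1088.1 CPM in the other 4 obese dogs and 1522.3 to 6416.8 CPM in the normal dogs. Its 7 monocyte markers summed to 3293.8 CPM, against 763 to 1158.6 CPM in the other obese dogs and 2712 to 4092.2 CPM in the normal dogs. The 6 T cell markers summed to 235 CPM in obese dog 3, 461 to 667 CPM in the other obese dogs and 168 to 191 CPM in the normal dogs. Its 7 erythroid markers summed to 1182.1 CPM, against 40.8 to 87.5 CPM in the other obese dogs and 28.1 to 32.5 CPM in the normal dogs. Of these 7 markers, 4 were above every other obese dog in obese dog 3 and 3 were not. Platelet markers, with 6 of 8 listed genes in the tables and GP1BB at 0 throughout, summed to 60.5 to 1184 CPM in obese dogs and 7.75 to 29.8 CPM in normal dogs. Plasma cell markers summed to 90.2 to 200 CPM in obese dogs and 173 to 859 CPM in normal dogs. Of the adipocyte markers LEP was at 0 in all 8 libraries, PLIN1 was at most 0.352 CPM, and ADIPOQ had 10.5 CPM in obese dog 3 and at most 0.279 CPM elsewhere. FABP4 was at 0 in all but normal dog 3. CIDEC was measured in every dog, at 7.15 to 13.9 CPM in obese dogs and 14.7 to 15.7 CPM in normal dogs, without overlap (adjusted p = 0.527, edgeR). In such a mixture fewer cells of a type and less RNA per cell cannot be told apart.

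**Figure D2:**
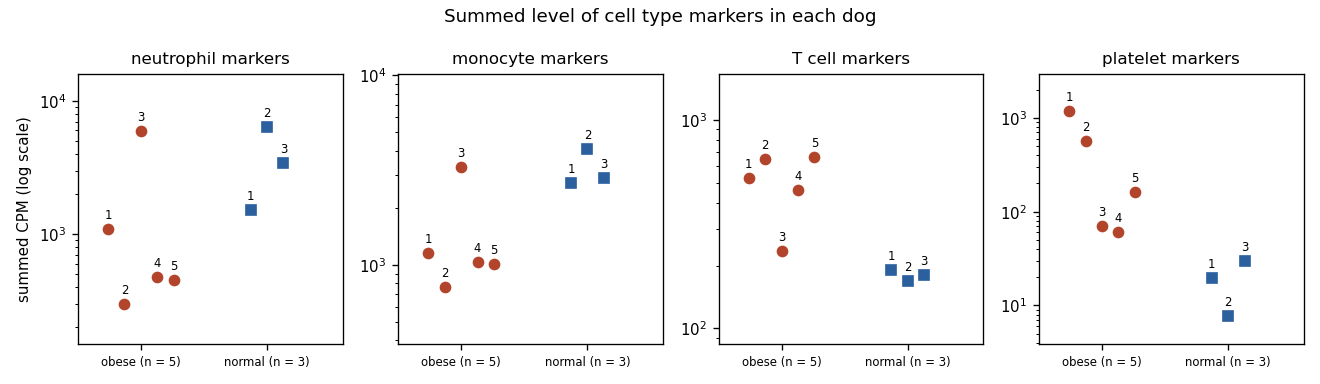
Summed CPM (log scale) of the neutrophil, monocyte, T cell and platelet marker lists in each dog, numbered by dog, with obese dogs as circles and normal dogs as squares. Obese dog 3 lies with the normal dogs for neutrophil and monocyte markers, and below the other 4 obese dogs for T cell markers.

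The summed level of the 42 genes was 1194.8, 1239.2, 2494.1, 1113.9 and 911 CPM in obese dogs 1 to 5, against 2354, 3261.8 and 2735.1 CPM in normal dogs 1 to 3. Obese dog 3 thus lay above normal dog 1. Storage genes made up most of this spread, with 83.2 to 179 CPM in obese dogs 1, 2, 4 and 5, 1218.2 CPM in obese dog 3 and 1003.8 to 1611.7 CPM in normal dogs. The summed oxidation genes ranged from 371 to 500 CPM in obese dogs and from 641 to 705 CPM in normal dogs, without overlap and with obese dog 3 the highest of its group. This sum is weighted towards its most abundant gene, ETFA, with 115 to 242 CPM in obese dogs and 275 to 314 CPM in normal dogs. Of the 14 oxidation genes, only 3 (HADHB, HADHA and ETFA) lay wholly below the normal dogs by themselves, beside 5.16% of all genes tested. Synthesis genes summed to 139 ± 16.6 CPM in obese dogs and 141 ± 12.4 CPM in normal dogs (SD, n = 5 and 3).

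**Figure D3:**
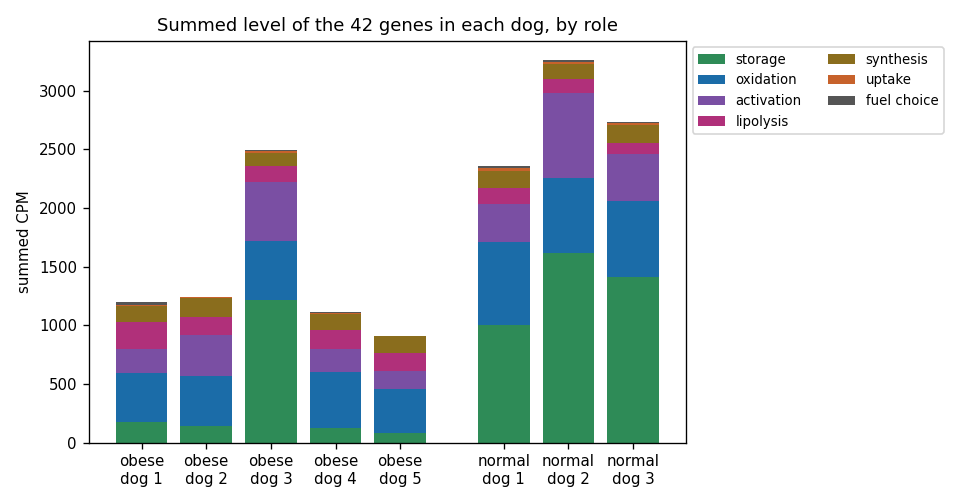
Summed CPM of the 42 genes in each dog (bars, obese dogs left of normal dogs), split by role. The storage segment is 83.2 to 179 CPM in obese dogs 1, 2, 4 and 5 and 1003.8 CPM or more in obese dog 3 and the normal dogs, while the synthesis segment is of like height throughout.

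Among the oxidation genes, HADHB had 23.9, 34.0, 33.6, 22.0 and 29.2 CPM in obese dogs 1 to 5, against 82.5, 69.7 and 71.3 CPM in normal dogs 1 to 3. Every obese dog lay below every normal dog, and obese dog 3 lay within the range of the other obese dogs. The log2 fold change was −1.38 (standard error 0.231, 95% interval −1.90 to −0.87, adjusted p = 0.049, edgeR). The log2 fold change stayed between −1.50 and −1.29 over 17 alternative fits, but the call did not: HADHB passed the threshold in 7 of them, with adjusted p-values from 6.3e-05 to 0.453. Leaving out obese dog 1, 2, 4 or 5 or any normal dog ended the call (adjusted p from 0.103 to 0.262, edgeR), and leaving out obese dog 3 gave an adjusted p = 0.00557. Plasma cell markers, with 4 of 5 genes lower in obese dogs without overlap, differed between the groups in the same direction as HADHB. The exception, XBP1, overlapped and had a log2 fold change of 0.205. Of the 7 monocyte markers 1, VCAN, was also lower without overlap, and none was higher without overlap. T cell markers, with 4 of 6 higher without overlap, and platelet markers, with 5 of 6 higher without overlap, differed in the opposite direction. Over all genes tested, 5.16% lay wholly below the normal dogs and 5.75% wholly above. The part of the plasma cell, T cell, platelet, neutrophil and monocyte markers in the level of HADHB was not tested.

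HADHA encodes the α-subunit of the same protein and lies next to HADHB in the reference gene table. It had 37.3, 47.9, 23.8, 44.4 and 42.7 CPM in obese dogs, against 59.0, 48.2 and 65.8 CPM in normal dogs. The groups did not overlap, though obese dog 2 and normal dog 2 were nearly level, and HADHA did not pass (log2 fold change −0.56 with a standard error of 0.266, adjusted p = 0.347, edgeR). Within a library, where scaling cancels, HADHB had 0.641, 0.71, 1.41, 0.496 and 0.683 counts per count of HADHA in obese dogs and 1.40, 1.44 and 1.08 in normal dogs. Obese dog 3 was thus among the normal dogs in this ratio, its HADHA being the lowest of all 8 dogs. The gene pairs compared in this way were picked with the values known and were not tested.

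ETFA, the α-subunit of the electron transfer flavoprotein, was the most abundant oxidation gene, with 123, 167, 242, 177 and 115 CPM in obese dogs, against 276, 314 and 275 CPM in normal dogs. The groups did not overlap, and obese dog 3 was nearest to the normal dogs. Its log2 fold change was −0.81 (standard error 0.27, adjusted p = 0.215, edgeR), and −1.02 with an adjusted p = 0.0256 without obese dog 3. ETFA overlaps an uncharacterised gene in the reference annotation, which had 2249 counts over the 8 libraries against 21974 for ETFA. ETFB, the β-subunit, had 18.8 ± 4.06 CPM in obese dogs and 21.5 ± 1.25 CPM in normal dogs, with overlap. ETFA had 5.47 to 11.5 counts per count of ETFB in obese dogs and 12 to 15.4 in normal dogs. ETFDH, the dehydrogenase that hands these electrons to ubiquinone, had 7.93 to 17.4 CPM in obese dogs and 12 to 20.5 CPM in normal dogs.

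CPT1A makes acylcarnitines at the outer mitochondrial membrane and is the main control point of entry. It had 89.8, 40.5, 49.8, 72.0 and 46.2 CPM in obese dogs, against 98.6, 86.4 and 87.8 CPM in normal dogs. Obese dog 1 lay within the normal range and the other 4 obese dogs below it (log2 fold change −0.61 with a standard error of 0.286, adjusted p = 0.341, edgeR). CPT1B, the muscle form, was low at 0.454 to 6.07 CPM in obese dogs and 2.18 to 4.02 CPM in normal dogs. CPT2, which reverses the step on the inner membrane, had 11.2 ± 4.2 CPM in obese dogs and 11.4 ± 3.51 CPM in normal dogs, with a 95% interval of its log2 fold change from −0.88 to 0.82.

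**Figure D4:**
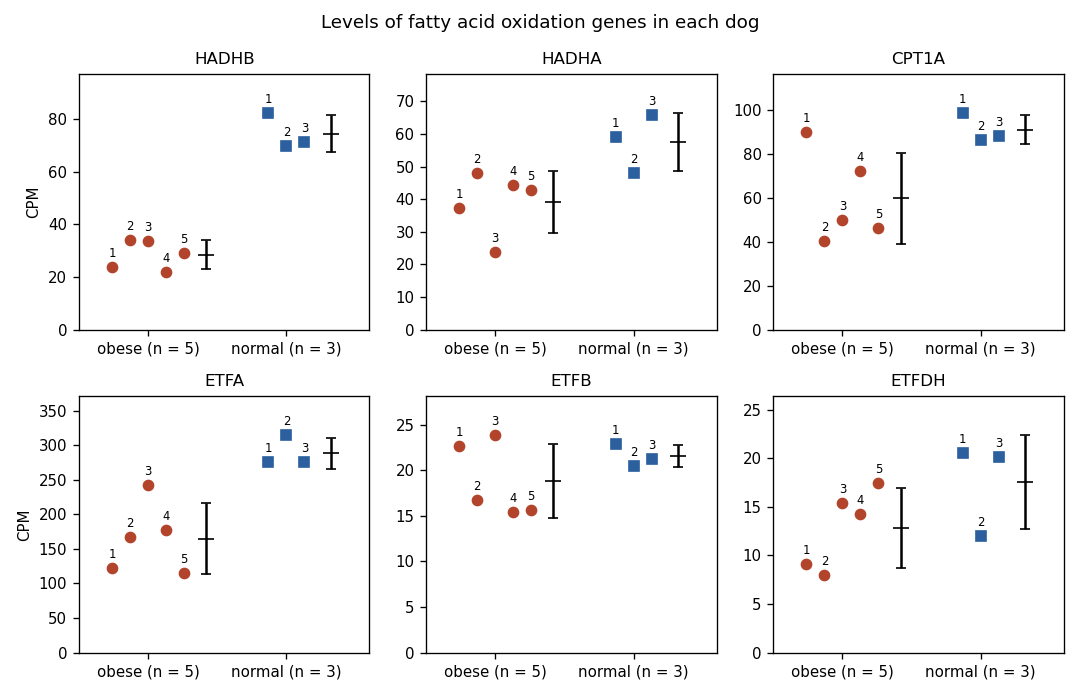
CPM of 6 oxidation genes in each dog (points numbered by dog, obese dogs as circles and normal dogs as squares), with the mean and SD of each group beside them. The groups are apart for HADHB, HADHA and ETFA and overlap for CPT1A, ETFB and ETFDH.

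The acyl-CoA dehydrogenases, which open each round of β-oxidation for chains of different length, showed no such gap. ACADVL had 37.1 ± 4.22 CPM in obese dogs and 41.0 ± 15.4 CPM in normal dogs, and ACADM had 15.7 to 40.9 CPM in obese dogs and 12.2 to 32.3 CPM in normal dogs. ACADS had 13.4 to 25.8 CPM in obese dogs and 12.8 to 17.4 CPM in normal dogs, and ACADL was near the limit of counting, at 0.892 to 3.52 and 1.66 to 2.74 CPM. The fitted 95% interval of the log2 fold change was −0.74 to 0.45 for ACADVL, −0.63 to 1.13 for ACADM and −0.55 to 0.86 for ACADS, so changes of the size seen for HADHB lay outside the intervals of these 3 genes. Of the later enzymes, HADH, a 3-hydroxyacyl-CoA dehydrogenase, had 7.15 to 22.0 CPM in obese dogs and 15.5 to 16.4 CPM in normal dogs. The enoyl-CoA hydratase ECHS1 had few counts, at 0.642 to 2.84 CPM in obese dogs and 1.77 to 2.68 CPM in normal dogs.

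Genes of uptake had few counts apart from FABP5. The annotation used for counting is not given, so here and for other genes a count near 0 is not read as absence of the transcript. The scavenger receptor CD36, which also carries fatty acids, had 7, 5, 2, 3 and 0 counts in obese dogs, against 17, 17 and 8 counts in normal dogs. Pooled by group and set over the library totals this was 0.26 CPM (95% Poisson interval 0.151 to 0.416) in obese dogs and 1.1 (0.79 to 1.48) in normal dogs, intervals that cover counting error only. LPL, the lipase that frees fatty acids from lipoproteins, had 34 counts in the obese group and 31 in the normal group. ANGPTL4, a secreted inhibitor of LPL, had 0 counts in all 5 obese dogs and 1, 4 and 7 counts in normal dogs 1 to 3. Pooled in the same way this was 0 CPM (95% Poisson interval 0 to 0.0563) in obese dogs and 0.313 (0.162 to 0.547) in normal dogs. These intervals too leave out the spread between dogs. FABP4, a fatty acid binding protein of adipocytes and macrophages, had 0 counts in 7 dogs and 6 counts in normal dog 3. None of these 4 genes passed the filter on low counts, and none was tested.

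FABP5 carries fatty acids within the cell. It had 2.84, 6.15, 15.4, 5.41 and 1.75 CPM in obese dogs, against 20.3, 17.5 and 15.4 CPM in normal dogs. Obese dog 3 was level with normal dog 3, and the other 4 obese dogs were at most 6.15 CPM. The log2 fold change was −1.50 (standard error 0.584, adjusted p = 0.265, edgeR), and −2.16 without obese dog 3 (adjusted p = 0.0161, edgeR).

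All 4 acyl-CoA synthetases were measured, and none passed the test. ACSL4, which prefers arachidonic acid, had 61.2, 78.2, 207, 41.3 and 38.1 CPM in obese dogs, against 129, 385 and 175 CPM in normal dogs. Obese dog 3 lay among the normal dogs and the other 4 obese dogs below them all (log2 fold change −1.43 with a standard error of 0.572, adjusted p = 0.276, edgeR). ACSL1, the most abundant of the 4 in obese dogs, had 87.8, 211, 242, 115 and 79.7 CPM there, against 147, 308 and 174 CPM in normal dogs. These groups overlapped in obese dogs 2 and 3 (log2 fold change −0.51, adjusted p = 0.587, edgeR). ACSL3, found on forming lipid droplets, had means of 30.7 ± 12.5 CPM in obese dogs and 30.7 ± 4.71 CPM in normal dogs, with a 95% interval of the log2 fold change from −0.80 to 0.80. ACSL5 had 14.6 to 21.9 CPM in obese dogs and 8.30 to 19.1 CPM in normal dogs.

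Among the storage genes PLIN2, DGAT2 and G0S2 had by far the highest levels and a shared pattern over the dogs. PLIN2, the perilipin that coats lipid droplets in most cell types, had 139, 75.0, 630, 74.9 and 52.4 CPM in obese dogs, against 669, 976 and 480 CPM in normal dogs. Obese dog 3 lay within the normal range, while the other 4 obese dogs lay below every normal dog. The log2 fold change of PLIN2 was −1.87 (standard error 0.778, adjusted p = 0.295, edgeR), and −3.09 without obese dog 3 (adjusted p = 0.00196, edgeR).

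DGAT2, which adds the last acyl chain in triglyceride synthesis, had 16.9, 9.45, 236, 13.4 and 8.51 CPM in obese dogs, against 92.2, 162 and 120 CPM in normal dogs. It is shown dog by dog because of this pattern, seen in its values. Obese dog 3 was the highest of all 8 dogs and the other 4 obese dogs the lowest, and the log2 fold change was −1.14 (standard error 1.1, adjusted p = 0.653, edgeR) with all dogs and −3.41 (adjusted p = 0.00082, edgeR) without obese dog 3. Obese dog 4, of the same breed as obese dog 3, lay with the other obese dogs. The part of breed in the level of DGAT2 was not tested. DGAT1, the other enzyme of this step, had only 1.28 to 1.93 CPM in obese dogs and 0.443 to 3.70 CPM in normal dogs.

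G0S2, an inhibitor of the main triglyceride lipase, had 12.8, 40.8, 326, 23.9 and 9.04 CPM in obese dogs, against 230, 461 and 787 CPM in normal dogs. Again obese dog 3 lay within the normal range and the other 4 obese dogs below it (log2 fold change −2.58 with a standard error of 1.11, adjusted p = 0.308, edgeR; −4.54 and an adjusted p = 0.00379 without obese dog 3). G0S2 overlaps LAMB3 in the reference annotation. LAMB3, a laminin chain of epithelia, was listed with 37306 counts against 23975 for G0S2, and had 36.9, 59.8, 642, 42.9 and 42.3 CPM in obese dogs, against 313, 912 and 1034.5 CPM in normal dogs, the same pattern. The sources used here do not state whether counting used strand, so reads of these genes cannot be told apart.

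**Figure D5:**
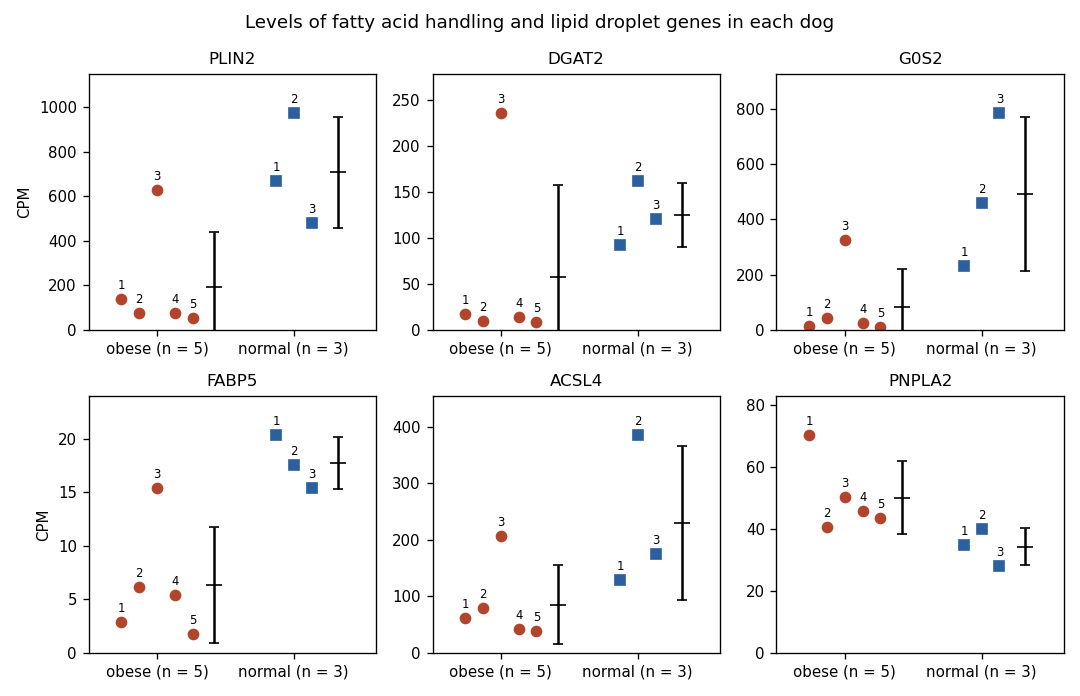
CPM of PLIN2, DGAT2, G0S2, FABP5, ACSL4 and PNPLA2 in each dog (points numbered by dog, obese dogs as circles and normal dogs as squares), with the mean and SD of each group beside them; an SD bar that would pass below 0 ends at the axis. Obese dog 3 lies apart from the other obese dogs for all but PNPLA2, for which every obese dog lies above every normal dog.

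The summed level of PLIN2, DGAT2 and G0S2 was 1191.2 CPM in obese dog 3, 69.9 to 168 CPM in the other obese dogs and 992 to 1599.9 CPM in normal dogs. In the same libraries the neutrophil marker S100A8 had 2130.8 CPM in obese dog 3, 46.4 to 330 CPM in the other obese dogs and 566 to 3153.7 CPM in normal dogs. CSF3R, the receptor for granulocyte colony-stimulating factor, had 423 CPM in obese dog 3, 25.1 to 34.5 CPM in the other obese dogs and 140 to 362 CPM in normal dogs. The 8 neutrophil markers were all in the tables and none was at 0 in every library. Obese dog 3 was above every other obese dog for 5 of the 8 and not for MMP8 (1.70 CPM, against 7.49 CPM in obese dog 1), LTF (121 against 156 CPM) or CAMP (12.8 against 126 CPM). Of the monocyte markers, VCAN had 851 CPM in obese dog 3, 201 to 325 CPM in the other obese dogs and 920 to 2191.2 CPM in normal dogs. CSF1R had 88.5 CPM in obese dog 3, 87.1 to 149 CPM in the other obese dogs and 55.4 to 120 CPM in normal dogs. The part of these markers in the levels of PLIN2, DGAT2, G0S2, FABP5 and ACSL4 was not tested.

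Without obese dog 3, 8 of 37 genes were lower in obese dogs at an adjusted p under 0.05 and 0 were higher, where 5.03% and 3.25% of the 20344 genes tested in that fit were. The 8 genes were HADHB, ETFA, FABP5, ACSL4, PLIN2, DGAT2, G0S2 and ACACB. A limma-voom fit that keeps all dogs and weights libraries by quality gave 9 lower and 1 higher of the 37 (9.34% and 8.42% of all genes), namely the same 8 genes with PDK4, and LIPA as the higher one. DESeq2 gave 2 lower, HADHB and ACACB (2.07% of all genes), and 0 higher (2.9%). ETFA, FABP5, ACSL4, PLIN2, DGAT2 and G0S2 each passed in only 2 of 17 alternative fits, limma-voom and that without obese dog 3. Their largest adjusted p-values over the 17 fits ran from 0.642 for ETFA to 0.903 for DGAT2. Obese dog 3 was the highest obese dog for each of these genes, so the fit without it is no separate support for a group difference.

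The other droplet genes were low, at most 10.5 CPM in any dog. PLIN3, a perilipin of small droplets, had 4.04 ± 2.76 CPM in obese dogs and 3.31 ± 1.12 CPM in normal dogs. PLIN4 had 4.96 to 8.64 CPM in obese dogs and 2.77 to 4.98 CPM in normal dogs, and its span overlaps that of another gene, HDGFL2. HILPDA, a lipase inhibitor induced by low oxygen, had 0.583 to 10.5 CPM in obese dogs and 1.62 to 9.12 CPM in normal dogs. PLIN5, the perilipin of oxidative tissues, had 17 counts in the obese group and 6 in the normal group and was not tested. PLIN2 had 10.2 to 136 counts per count of PLIN3 in obese dogs and 190 to 228 in normal dogs, without overlap.

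Lipolysis genes had the opposite sign to the main storage genes, and none passed. PNPLA2, or adipose triglyceride lipase, makes the first cut in stored triglyceride. It had 70.1, 40.5, 50.1, 45.8 and 43.6 CPM in obese dogs, against 34.6, 39.9 and 27.9 CPM in normal dogs. Every obese dog lay above every normal dog, though obese dog 2 and normal dog 2 were nearly level (log2 fold change 0.55 with a standard error of 0.261, adjusted p = 0.345, edgeR). Its inhibitor G0S2 had 0.183, 1.01, 6.49, 0.523 and 0.207 counts per count of PNPLA2 in obese dogs and 6.66, 11.5 and 28.2 in normal dogs, so the groups were just apart, with obese dog 3 beside normal dog 1.

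LIPA, the acid lipase of lysosomes, had 51.7 to 102 CPM in obese dogs and 35.7 to 70.5 CPM in normal dogs (log2 fold change 0.63, adjusted p = 0.385, edgeR). The monoglyceride lipase MGLL had 38.3 ± 12.3 CPM in obese dogs and 33.0 ± 6.33 CPM in normal dogs. LIPE, or hormone-sensitive lipase, had 0.454 to 5.19 CPM in obese dogs, lowest in obese dog 3, and 1.33 to 2.81 CPM in normal dogs. An uncharacterised gene that overlaps LIPE had 5448 counts against 342 for LIPE.

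Fatty acid synthesis starts with the 2 acetyl-CoA carboxylases, which make malonyl-CoA. ACACB, the form at the mitochondrial surface whose product blocks CPT1, had 4.88, 3.77, 4.65, 5.91 and 5.02 CPM in obese dogs, against 9.49, 10.2 and 13.6 CPM in normal dogs. The groups were well apart, with obese dog 3 among the other obese dogs, and ACACB still missed the threshold (log2 fold change −1.20, standard error 0.317, 95% interval −1.90 to −0.49, adjusted p = 0.139, edgeR). It passed in 3 of 17 alternative fits, with adjusted p-values over all of them from 0.00749 to 0.563. ACACA, the cytosolic form, had 66.4 ± 15.2 CPM in obese dogs and 62.3 ± 15.9 CPM in normal dogs, with a 95% interval of the log2 fold change from −0.50 to 0.68. ACACA had 10.9 to 24.5 counts per count of ACACB in obese dogs and 4.33 to 7.44 in normal dogs, without overlap.

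ACLY, which supplies cytosolic acetyl-CoA, had 46.2 ± 11 CPM in obese dogs and 51.6 ± 6.23 CPM in normal dogs. FASN, the synthase itself, had 2.38 to 8.81 CPM in obese dogs and 2.43 to 4.21 CPM in normal dogs (log2 fold change 0.92, adjusted p = 0.393, edgeR). SCD, which adds the first double bond, had 10.2 to 18.5 CPM in obese dogs and 12 to 14.7 CPM in normal dogs. The 95% intervals of FASN (−0.16 to 2.00) and SCD (−0.34 to 0.93) included 0 and were wide towards higher values in obese dogs.

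PDK4 and UCP2 bear on which fuel mitochondria burn. PDK4, a kinase that shuts off pyruvate oxidation, had 25.2, 0.132, 9.64, 6.41 and 0.408 CPM in obese dogs, against 11.7, 15.2 and 14.4 CPM in normal dogs. Obese dog 1 was the highest of all dogs, while obese dogs 2 and 5 had only 2 and 7 counts, so the spread within the obese group exceeded the difference between groups (log2 fold change −0.73 with a standard error of 1.17, adjusted p = 0.802, edgeR). UCP2, a carrier of the inner mitochondrial membrane, had 0, 30, 0, 26 and 64 counts in obese dogs and 22, 0 and 15 counts in normal dogs. The 3 libraries at 0 had limits of 0.34, 0.34 and 0.332 CPM, the level that 3 counts would give, and the other 5 libraries had 0.957 to 3.73 CPM.

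Beyond the 42 genes, 110 further genes of the same pathways and their regulators were in the tables and 107 were tested. None passed in either direction with edgeR, where 7 lower and 14 higher had an unadjusted p under 0.05, beside 6.73% and 9.01% of all genes. DESeq2 called 3 lower and 4 higher, beside 2.07% and 2.9% of all genes. Their median log2 fold change was 0.23. Levels in obese dogs lay wholly below the normal dogs for 6 genes and wholly above for 12, beside the 5.16% and 5.75% of all genes. The 18 genes grouped as mitochondrial oxidation in this wider list had a median of 0.31 with 15 of 18 positive, opposite in sign to the 14 oxidation genes above. With upper-quartile scaling 13 of 18 were positive, and 11 of 18 without obese dog 3. This group is broader than β-oxidation, with genes of propionyl-CoA and amino acid breakdown such as PCCA, MMUT and ACAD8, so the medians are of unlike sets. SLC25A20, the mitochondrial carnitine carrier, had a negative log2 fold change of −0.979 (adjusted p = 0.292, edgeR).

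The 6 wider genes with the smallest p were ELOVL7, PPARG, MECR, FABP3, LPIN1 and HACD4. ELOVL7, an elongase of very long chains, had 3.06 ± 1.12 CPM in obese dogs and 12.3 ± 1.66 CPM in normal dogs (adjusted p = 0.0686, edgeR). PPARG, the nuclear receptor that drives many lipid storage genes, PLIN2 and FABP4 among them, had 9.53, 6.88, 18.1, 11 and 12.4 CPM in obese dogs, against 30.6, 21.7 and 26.7 CPM in normal dogs. The groups did not overlap and obese dog 3 was the highest of its group. FABP3, the heart-type binding protein, had 1.25 to 9.30 CPM in obese dogs and 13.9 to 23.2 CPM in normal dogs. It was lowest in obese dog 3, unlike its relative FABP5. Higher in obese dogs without overlap were MECR, of mitochondrial fatty acid synthesis (12 to 21.8 against 4.78 to 8.96 CPM in normal dogs), LPIN1, a phosphatidate phosphatase (23.0 to 44.2 against 13.6 to 18.5 CPM), and HACD4, a dehydratase of chain elongation (32.3 to 87.4 against 18.6 to 23.3 CPM). The adjusted p-values of the last 5 genes ran from 0.153 to 0.196 (edgeR).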

How the data were processed

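Trizol RNA went into Lexogen QuantSeq 3′ libraries, per the labels' protocols. The authors deposited 1 table per dog of whole-number counts per gene symbol, not normalized. The submitters' processing notes name Bowtie2 and bedtools. Versions, build, annotation and use of strand: not given in the sources used here. Of the 35048 rows, 500 shared a symbol with another row, and none of these was among the 42 genes. Overlaps came from the RefSeq gene table of UU_Cfam_GSD_1.0, in which all 42 were found.

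No 2 libraries agreed within sampling noise (lowest chi-square per degree of freedom 35.9). Counts were tested in R 4.3.3 with edgeR 4.0.16 (filterByExpr, TMM, glmQLFit and glmQLFTest, robust), obese against normal, with Benjamini-Hochberg adjustment over 20632 genes. CPM use TMM-scaled library sizes. Standard errors are the absolute log2 fold change over the root of F. The fit was tested on simulated data. P-values rest on the spread between dogs. Alternatives used DESeq2 1.42.0, limma 3.58.1, other scalings and filters, and fits without each dog.

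The genes and lists were chosen with earlier results of these data known. Genes given dog by dog were those past the threshold, those of at least 1 CPM whose groups did not overlap, the 10 with the smallest p and the 4 most abundant. DGAT2, PDK4, UCP2 and the uptake genes of low count were added after their values were seen, as were the genes of the closing observations.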

Additional observations from a re-analysis of the deposited data

Results flagged for a closer look

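In the 5 obese dogs, each of the 37 tested genes was checked for a dog far from the others, by the gap to its neighbour as a share of the group's range (Dixon's ratio, critical value 0.71). For normally distributed values chance alone flags about 1 in 20 such groups. Whether this rate holds for CPM was not tested, and flags of the same dog come from the same library and are not independent. Obese dog 3 was far above the other obese dogs for PLIN2 at 630 CPM, DGAT2 at 236 CPM, G0S2 at 326 CPM and ACSL4 at 207 CPM, with ratios of 0.851, 0.963, 0.9 and 0.762. In the same library the neutrophil markers summed to 5981.9 CPM and the monocyte markers to 3293.8 CPM, and their part in these levels was not tested. Obese dog 4 was far above the others for ACADS at 25.8 CPM (0.957) and for PLIN4 at 8.64 CPM (0.747). Obese dog 2 was far above them for ACACA at 92.4 CPM (0.722), and obese dog 1 far below them for SCD at 10.2 CPM (0.742).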

How the results depend on the processing

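Over all genes, 38 lower and 10 higher calls became 428 and 599 with DESeq2, 1927 and 1738 with limma-voom quality weights, and 2 to 1023 and 0 to 661 when each dog was left out, the highest counts being those without obese dog 3; every one of these fits had at least 1735 genes with an unadjusted p under 0.05. Of the 42 genes, the 1 lower call became 0 with no filter on low counts (HADHB at an adjusted p = 0.0623), 2 with DESeq2, 9 with limma-voom and 0 to 8 without each dog, and the 0 higher calls became 1 with limma-voom and 0 throughout without each dog. The wider list went from 0 calls to 3 lower and 4 higher with DESeq2, 5 and 14 with limma-voom, and 0 to 4 and 0 to 3 without each dog. The median of the oxidation genes was −0.32, −0.49 with limma-voom and −0.46 to −0.23 without each dog, and that of storage and lipolysis genes was 0.22 and −0.15 to 0.31. Other scalings and the stricter filter kept HADHB as the 1 call. Dogs of the 2 groups share only a number: same-numbered dogs had correlations of deviations of −0.024, −0.231 and 0.008. With the replicate number as a block, possible for 3 dogs a group, there were 0 lower and 0 higher calls over all genes (1562 at an unadjusted p under 0.05) and 0 among the 42 (3 unadjusted). The same 6 libraries without the block, a fit added after seeing the data, also gave 0 lower and 0 higher calls (2301 unadjusted) and 0 among the 42 (2 unadjusted). Genes under about 1 CPM were limited by counting.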

Other observations

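GPAT3, which adds the first acyl chain to glycerol phosphate in triglyceride synthesis, had 50.9, 20.5, 351, 14.3 and 9.74 CPM in obese dogs and 591, 1769.4 and 987 CPM in the normal dogs. The groups did not overlap, and obese dog 3 was again far above the other obese dogs. Its log2 fold change was −3.65 (standard error 1.14, adjusted p = 0.206, edgeR) and −5.59 without obese dog 3 (adjusted p = 0.00216, edgeR). Among the fits that left out each dog in turn, GPAT3 passed only in this one. CRAT, the carnitine acetyltransferase of mitochondria and peroxisomes, had 7.71, 11.1, 33, 12.9 and 9.45 CPM in obese dogs, against 4.29, 3.76 and 6.12 CPM in normal dogs. It overlaps PTPA in the reference annotation, which had 1086 counts against 1111 for CRAT. DECR2, a peroxisomal reductase of unsaturated acyl-CoA, had 7.34 to 17.9 CPM in obese dogs and 4.01 to 6.12 CPM in normal dogs. Neither passed (adjusted p = 0.197 and 0.205, edgeR).

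ACOT7, an acyl-CoA thioesterase, had 753, 165, 23.8, 39.3 and 83.2 CPM in obese dogs and 27.1, 23.6 and 27.4 CPM in the normal dogs. It did not pass, with a log2 fold change of 3.03 and a standard error of 1.14 (adjusted p = 0.261, edgeR). Obese dogs 1 and 2 were the highest, and obese dog 3 lay among the normal dogs. In the same libraries the platelet markers summed to 1184, 560, 69.5, 60.5 and 164 CPM in obese dogs 1 to 5, against 19.4, 7.75 and 29.8 CPM in normal dogs 1 to 3, and their part in the level of ACOT7 was not tested. An uncharacterised gene that overlaps ACOT7 had 10450 counts against 12505.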
